A study of Mus musculus with 2 samples.

Results

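The genes for ligands and receptors of the tumour necrosis factor (TNF) superfamily were compared between a graft of mouse small intestinal epithelium on the colon and normal colonic epithelium. Members were the genes whose symbol begins with Tnfsf or Tnfrsf, together with the family genes that carry older names, such as Tnf, Lta, Ltb, Fas, Fasl, Cd40 and Ngfr. The arrays measured 38 of them, 12 ligands and 26 receptors, among 17305 genes with a probe set annotated to a single symbol. Cd40lg, Cd70 and Eda2r were not analysed here.

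The graft sample came from intestinal cells of an EGFP-transgenic donor mouse of C57BL6 background. They were cultured for 7 days as organoids with stem cells and then instilled into the colon of C57BL6 recipients. The graft epithelium was taken 4 weeks later by laser microdissection. The colon sample was epithelium dissected in the same way from a C57BL6 mouse without a graft. Each group is 1 array of 1 selected RNA sample, pooled over the serial sections of 1 specimen. No value below therefore has a replicate check or a p-value. Ungrafted small intestine was not analysed here, so the tissue of origin and the grafting cannot be told apart. A dissected graft may also hold cells of the recipient.

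TNF ligands are mostly trimeric membrane proteins, and several are also cleaved to soluble cytokines. They cluster their receptors on a neighbouring cell. Receptors with an intracellular death domain can recruit FADD or TRADD and lead to caspase activation or to NF-kappaB signalling. Receptors without one bind TRAF adaptors and mainly activate the canonical or the alternative NF-kappaB pathway. Decoy receptors bind ligand but pass on no death signal. In the gut, TNF receptors govern epithelial survival and shedding, RANKL induces the M cells that cover lymphoid follicles, and BAFF and APRIL support IgA-producing B cells and plasma cells.

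The largest differences within the family were all towards higher values in the graft. The B cell survival ligand Tnfsf13b (BAFF), the TWEAK receptor Tnfrsf12a (Fn14) and the death receptor Fas passed 2-fold there, and 0 of the 38 genes were 2-fold lower. Without a filter on low values, 1.93% of all 17305 genes passed 2-fold upwards in the graft and 3.09% downwards. At 1.5-fold, Tnfsf10 (TRAIL) joined the other three and again 0 members were lower, against 4.80% of all genes higher and 8.17% lower. Set relative to the median difference of 10 epithelial markers, 0.38, these 1.5-fold counts were 3 and 3. Tnfsf10 was then at 0.51, and Tnfrsf1a, Tnfrsf21 and Ltbr were at -0.86, -0.67 and -0.60. The 10 markers themselves ran from -0.49 to 0.91, with 7 higher and 3 lower in the graft, so this reference depends on their choice. That reference moved the median of all genes to -0.38. The shares of all genes past 1.5-fold were not counted on it, so the 3 and 3 cannot be read as particular to the family. Tnfsf13b alone passed 4-fold, which 0.595% of all genes did upwards and 0.745% downwards. The median difference over the 38 members, graft minus colon on the log2 scale, was 0.021, and over all genes it was 0. Most of the family had nearly equal values on both arrays, with 5 members at exactly the same value (13.2%, against 12.6% of all genes). Such exact ties may come from the processing of the deposited values, which was not given, and are not read as equal expression.

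Most members were dim. Of the 38, 13 reached the median of all gene values, 5.48 on the log2 scale, on at least 1 array (34.2%, against 54.3% of all genes). Of these 13, 9 reached it on both arrays, and Tnfsf13b, Tnfsf10, Tnf and Ngfr reached it on the graft array alone. Among the 9392 genes at this level, 3.55% passed 2-fold upwards in the graft and 5.68% downwards. The other 25 members lay between 4.50 and 5.45 in the graft and between 4.53 and 5.39 in the colon, with differences from -0.15 to 0.24. The deposited table has no detection calls, so these levels cannot be separated from background and small differences between them carry no order. Where only 1 of the 2 values reaches the level, as for Tnfsf13b and Tnfsf10, the printed fold is that of the deposited values. It may be understated by an unknown amount. The disagreement between probe sets was gauged from 586 other genes with a second probe set at the same level. The differences of their 2 probe sets were apart with an SD of 0.48. That is an SD of 0.34 for the difference of a single probe set. It leaves out variation between animals. Errors that both probe sets share, such as those of dissection or amplification, are left out as well, so it may understate the technical error. None of the 38 members has a second probe set. The differences of Tnf and Tnfrsf1a were less than 2 such SDs. Those of Fas and Tnfsf10, 1.10 and 0.90, lay within 1 such SD of the 2-fold line. On which side of that line they fall is therefore uncertain.

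**Figure D1:**
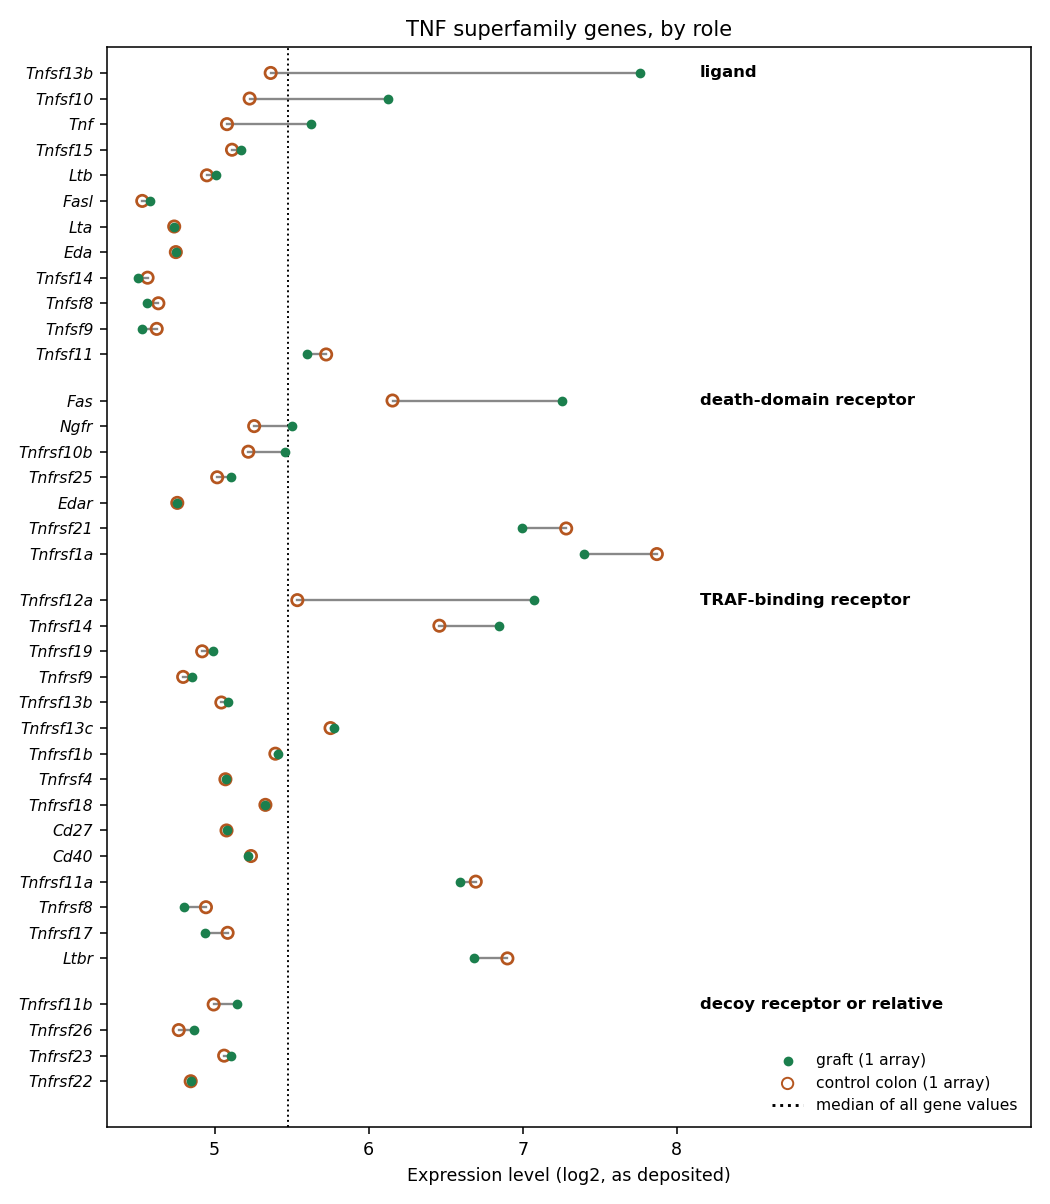
Deposited log2 level of each of the 38 TNF superfamily genes on the graft array (filled green) and the control colon array (open orange), grouped by role and ordered by their difference; the dotted line is the median of all gene values, 5.48. Tnfsf13b, Tnfrsf12a and Fas have the longest connecting lines, with the graft to the right, and most other members lie left of the line with overlapping points.

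Among the ligands, Tnfsf13b had a graft value of 7.76 and a colon value of 5.36, which is 5.28-fold apart as deposited (2.40 on the log2 scale), with the colon value below the median level. Of all 17305 genes, 62 had a higher difference in favour of the graft (0.358%). BAFF is made mainly by myeloid and stromal cells and can also be made by epithelial cells, and it binds the receptors BAFF-R, TACI and BCMA on B-lineage cells. Its receptors showed no comparable difference. BAFF-R, Tnfrsf13c, was at 5.78 and 5.75, TACI, Tnfrsf13b, at 5.08 and 5.04, and BCMA, Tnfrsf17, at 4.94 and 5.08 in graft and colon. Only the first of these receptors reached the median level.

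Tnfsf10 encodes TRAIL, which triggers apoptosis through the receptor DR5 and is known as an interferon-induced gene. Its graft value was 6.12 and its colon value, below the median level, 5.23, 1.86-fold apart as deposited, and 391 genes had a higher difference. The single mouse death receptor for TRAIL, Tnfrsf10b, was below the median level on both arrays, at 5.45 and 5.22, and only just so in the graft. The other proteins that bind TRAIL were dim on both arrays. Tnfrsf22 had the same value of 4.84 on both, Tnfrsf23 was at 5.11 and 5.06, and osteoprotegerin, Tnfrsf11b, at 5.14 and 4.99.

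Tnf, the inflammatory cytokine that gives the family its name, had a graft value of 5.63 against 5.08, a difference of 0.55. Tnfsf11 (RANKL), which is made mainly by stromal cells below follicles, was at 5.60 and 5.72, a difference of -0.12. The other 8 ligands stayed below the median level on both arrays. The lymphotoxin subunits Lta and Ltb were at 4.74 on both arrays and at 5.01 and 4.95. Fasl, the ligand that cytotoxic T and NK cells use against Fas-bearing cells, was at 4.58 and 4.53. Tnfsf14 (LIGHT), Tnfsf8 (CD30 ligand) and Tnfsf9 (4-1BB ligand) had differences of -0.062, -0.071 and -0.096. The TL1A gene Tnfsf15 was at 5.17 and 5.11, and the ectodysplasin gene Eda at 4.75 on both arrays. A further probe set, annotated jointly to Tnfsf12, Tnfsf13 and their read-through Tnfsfm13, lay outside the rule of a single symbol. It had a graft value of 6.55 against 6.35, and cannot be assigned to TWEAK or to APRIL.

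The death-domain receptors went both ways. Fas, which starts the extrinsic death pathway after binding Fas ligand, had a graft value of 7.25 against 6.15 in the colon sample, 2.14-fold higher. A higher difference was found for 289 genes (1.67%). Tnfrsf1a, the main receptor for TNF on epithelial cells, was lower in the graft, at 7.39 against 7.87, a difference of -0.48, and 17.3% of all genes had a larger absolute difference. Tnfrsf21 (DR6) was at 6.99 against 7.28, a difference of -0.29, less than the single-probe-set SD. Ngfr, the low-affinity neurotrophin receptor of nerve and glial cells, was at 5.50 and 5.26. The TL1A receptor Tnfrsf25 was at 5.11 and 5.02, and the ectodysplasin receptor Edar at 4.76 on both arrays. Relative to the epithelial markers, the difference of Fas was 0.72 and no longer 2-fold. On the same reference, those of Tnfrsf12a and Tnfsf13b were 1.15 and 2.02, Tnfrsf14 was near equal at 0.00096, and the differences of Ngfr and Tnfrsf10b turned to -0.14 and -0.15. The reference moved the median of all genes to -0.38.

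Among the TRAF-binding receptors, Tnfrsf12a had a graft value of 7.07 against 5.54, 2.90-fold higher, and 162 genes had a higher difference (0.936%). Its colon value lay just above the median level, so this fold may also be understated. Fn14 is a small receptor that is induced by injury and growth factors in many epithelia. Tnfrsf14 (HVEM), an epithelial and lymphoid receptor for LIGHT and lymphotoxin alpha, was at 6.84 and 6.46, a difference of 0.38. Ltbr, the receptor for lymphotoxin alpha-beta and LIGHT that drives the alternative NF-kappaB pathway, was at 6.68 and 6.90, a difference of -0.22. Tnfrsf11a (RANK), the receptor that epithelial cells use to respond to RANKL, was at 6.59 and 6.69. These last 3 receptors reached the median level on both arrays. Ltbr and Tnfrsf11a differed by less than the single-probe-set SD of 0.34, and Tnfrsf14 by slightly more. The other 10 of this class besides Tnfrsf13c stayed below the median level, most of them receptors of lymphocytes. They include Cd27, with 5.08 on both arrays, Cd40 with 5.22 and 5.24, the second TNF receptor Tnfrsf1b with 5.41 and 5.39, and Tnfrsf18 (GITR) with 5.33 on both. OX40 (Tnfrsf4), 4-1BB (Tnfrsf9), CD30 (Tnfrsf8) and TROY (Tnfrsf19) differed by 0.0045, 0.060, -0.14 and 0.069.

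The 4 decoy receptors and relatives were all dim. Osteoprotegerin, the soluble decoy for RANKL and TRAIL, had the largest difference of this class, 0.15. Tnfrsf22 and Tnfrsf23 are TRAIL decoys, and Tnfrsf26 is their neighbour and relative. The latter had values of 4.86 and 4.77.

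**Figure D2:**
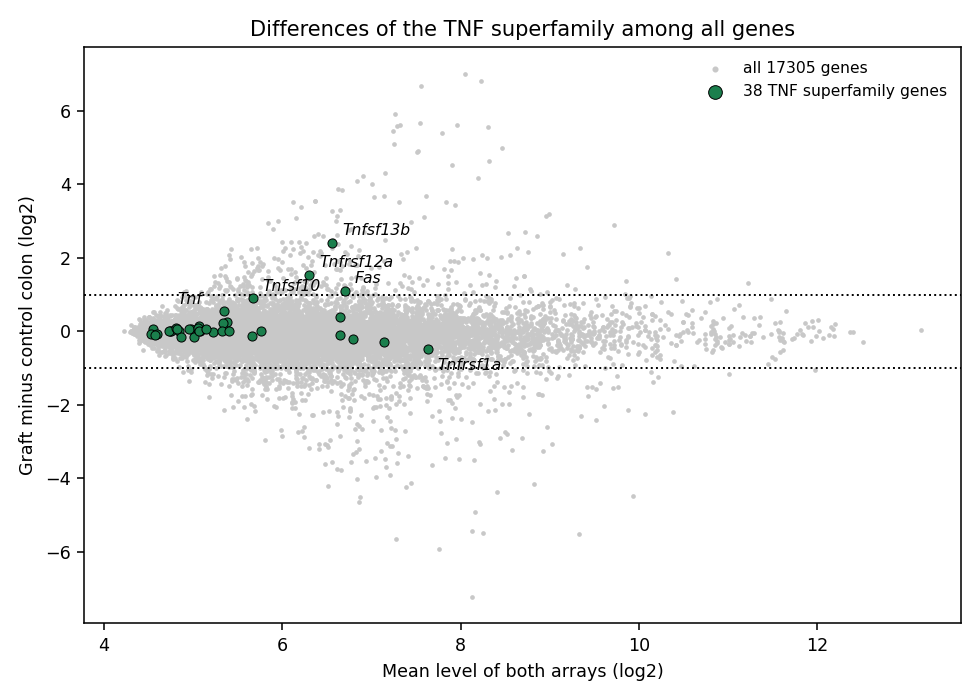
Difference between graft and control colon (log2, y axis) against the mean level of both arrays (log2, x axis) for all 17305 genes in grey and the 38 TNF superfamily genes in green; dotted lines mark 2-fold. Of the green points, 3 lie above the upper line and 0 below the lower one, and most lie at the dim left end near 0.

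Ligands were also set beside their receptors. Of 22 known ligand-receptor pairs among the members, both genes reached the median level in 3, which were Tnf with Tnfrsf1a, Tnfsf11 with Tnfrsf11a, and Tnfsf13b with Tnfrsf13c. In the first, the ligand differed by 0.55 and the receptor by -0.48. In the second, the values were -0.12 and -0.10. In the third, they were 2.40 and 0.024. Fas was 2.14-fold higher in the graft beside a Fasl difference of 0.052. In 5 pairs neither gene reached the median level.

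Several members lie side by side in the genome. In the RefSeq gene order, 12 members form 7 pairs of adjacent protein-coding genes. Tnf lies between Ltb and Lta in the major histocompatibility region. Its difference of 0.55 stood beside 0.061 for Ltb and 0 for Lta. The T cell costimulators Tnfrsf4 and Tnfrsf18 are neighbours with differences of 0.0045 and 0.00059, and Tnfrsf1b and Tnfrsf8 with 0.017 and -0.14. The decoy cluster of Tnfrsf26, Tnfrsf22 and Tnfrsf23 had 0.096, 0 and 0.046. These neighbours were dim on both arrays, apart from Tnf in the graft.

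The promoters of the 3 members that passed 2-fold are shown because their genes were the ones that differed most. Each is the 250 bases before the RefSeq start, on the gene's strand in GRCm38.p6. For Tnfsf13b the more upstream of 2 starts was used. A set of 4 motifs was searched on both strands and matches are in capitals: the NF-kappaB consensus, the paired element GAAANNGAA bound by interferon regulatory factors, the STAT palindrome TTCNNNGAA and the AP-1 site TGANTCA.
Tnfsf13b, chr8:10006217-10006466, plus strand: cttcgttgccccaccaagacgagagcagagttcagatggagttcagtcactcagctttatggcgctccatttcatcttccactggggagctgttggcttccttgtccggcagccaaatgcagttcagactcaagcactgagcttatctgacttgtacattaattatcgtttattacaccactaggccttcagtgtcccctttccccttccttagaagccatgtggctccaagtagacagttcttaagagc
Tnfrsf12a, chr17:23677450-23677699, minus strand: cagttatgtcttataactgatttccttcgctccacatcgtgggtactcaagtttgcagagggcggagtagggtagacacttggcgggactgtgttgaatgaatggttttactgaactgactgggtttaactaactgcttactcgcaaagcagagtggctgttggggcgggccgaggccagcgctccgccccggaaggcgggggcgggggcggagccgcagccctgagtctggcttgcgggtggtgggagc
Fas, chr19:34290409-34290658, plus strand: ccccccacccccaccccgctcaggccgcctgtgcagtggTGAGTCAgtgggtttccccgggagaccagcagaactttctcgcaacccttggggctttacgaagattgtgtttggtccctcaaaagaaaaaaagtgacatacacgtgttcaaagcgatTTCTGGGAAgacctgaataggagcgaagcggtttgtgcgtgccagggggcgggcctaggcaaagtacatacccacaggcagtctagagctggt

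The Fas window held an AP-1 match, TGAGTCA, from 211 to 205 bases before the start, and a STAT palindrome, TTCTGGGAA, from 93 to 85 bases before it, which do not overlap. The windows of Tnfrsf12a and of the first Tnfsf13b start held no match to these letters. The second Tnfsf13b start lies 166 bases downstream, and its window held an AP-1 match from 127 to 121 and a paired element from 16 to 8 bases before that start. The stretches around them are given for comparison with the first window.
Tnfsf13b, chr8:10006495-10006524, plus strand: cttgtctggagTGAGTCAgtctgaacccca
Tnfsf13b, chr8:10006607-10006632, plus strand: tacaaaaactGAAAGTGAAatgcgga

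RefSeq start windows were listed for 32 of the 38 members, 36 windows in all. The NF-kappaB consensus was found in 4 of the 36 windows (11.1%) and in 7.25% of all 32851 windows of this length, in the members Ltb, Tnfrsf25, Tnfrsf8 and Tnfrsf9. The paired element was found in 6 windows (16.7%, against 7.13%), the STAT palindrome in 8 (22.2%, against 7.02%) and the AP-1 site in 5 (13.9%, against 6.75%). Members that differed little between the samples held most of these matches, such as Tnfrsf1b with the paired element and the STAT palindrome. A match describes the letters only, and binding was not measured.

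Genes that act below the receptors had medians near 0, with a few single genes apart. Of 27 measured adaptors, kinases and ubiquitin enzymes, 0 were 2-fold apart, with a median of -0.069. The apoptosis signalling kinase Map3k5 was lower in the graft by the largest amount, at 5.57 against 6.56, a difference of -0.98. The ubiquitin ligase Birc2 (cIAP1) and the adaptor Tradd had differences of -0.62 and -0.51. The linear ubiquitin ligase subunits Rnf31 (HOIP) and Sharpin had 0.51 and 0.29. Fadd was at 6.91 and 7.24.

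Among 13 NF-kappaB subunits and inhibitors, the median was 0, and 1 gene was 2-fold higher and 1 lower. Nfkbiz, an inducible nuclear regulator of NF-kappaB target genes, exceeded its colon value 2.36-fold, at 7.32 against 6.08. Tnip3, an inducible partner of the deubiquitinase A20, was 3.49-fold lower as deposited, at 5.06 against 6.86, with the graft value below the median level. Rel, the c-Rel subunit, was at 6.69 and 5.73, a difference of 0.96, while Rela had 6.10 on both arrays. The inhibitor genes Nfkbia and Tnip1 had differences of -0.61 and -0.75.

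The 17 death receptor effectors and inhibitors also had a median of 0, with 1 gene 2-fold higher and 0 lower. The executioner caspase Casp6 exceeded its colon value 3.41-fold, at 7.56 against 5.79. Ripk3, the kinase of necroptosis, and Apaf1, the scaffold of the apoptosome, had differences of 0.85 and 0.83. The initiator Casp8 and its inhibitor Cflar, which sit directly below Fas, were at 8.23 and 8.32, and at 7.53 and 7.71. The survival gene Mcl1 had a difference of -0.64 and the inhibitor antagonist Diablo of -0.44.

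Genes that TNF induces in many cells had a median of 0.055 over 22 genes, of which 0 passed 2-fold upwards and 1 downwards. The latter was Tnfaip8, a regulator of cell death, at 5.52 against 6.79. Nos2, Irf1 and Vcam1 had differences of 0.87, 0.85 and 0.84, and Gadd45b had -0.63. Neither Cxcl1 (5.29 and 5.13) nor Cxcl2 (4.64 and 4.53), chemokines often used as TNF readouts and named here after their values were seen, reached the median level. Among 10 genes of RANKL-dependent M cells, the median was 0.15, and 1 was 2-fold higher. This was Spib, a transcription factor of M cells and of B cells, 2.96-fold above the colon value as deposited, at 6.44 against 4.88, with the colon value below the median level. The M cell receptor Gp2 was dim in both samples, at 4.66 and 4.57. Anxa5 and Ccl9 had differences of 0.89 and 0.64, and Marcksl1 and Ccl20 of -0.56 and -0.39. Over all genes without a filter, the shares past 2-fold were the 1.93% and 3.09% given above.

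**Figure D3:**
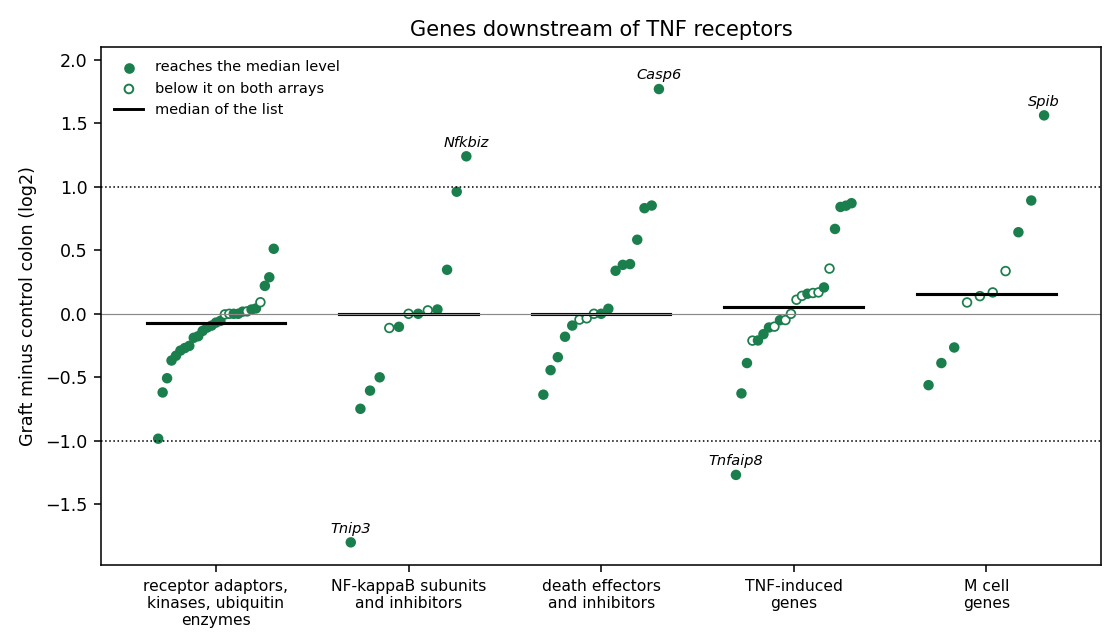
Difference between graft and control colon (log2) for each measured gene of 5 lists of genes downstream of TNF receptors; filled points reach the median level on at least 1 array, open points do not, black bars are list medians and dotted lines mark 2-fold. The medians lie between -0.069 and 0.15, and Nfkbiz, Casp6, Spib, Tnip3 and Tnfaip8 lie outside the dotted lines.

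Several of these genes are also expressed by leukocytes and stroma, so markers of such cells were read in the same samples. The 10 epithelial markers were bright on both arrays, from 7.30 to 12.0 in the graft and from 6.49 to 11.7 in the colon. Of 10 myeloid markers, 6 reached the median level, as did 54.3% of all genes. Of the 10, 0 were 2-fold apart, with a median difference of 0.23. Their summed linear level was 617 for the graft against 520, a ratio of 1.19, and 8 of 10 were higher in the graft, Ptprc by 0.78 and C1qb by 0.73. Adgre1 and Itgax, markers of macrophages and dendritic cells, lay at 4.76 and 4.82 on the graft's array and at 4.99 and 4.71 on the other. Adgre1 and Lyz2, with differences of -0.23 and -0.12, went against the other 8. The epithelial markers had a sum ratio of 1.16 and a median difference of 0.38, with 7 higher and 3 lower in the graft. The myeloid markers were dimmer, from 4.76 to 7.05 in the graft and from 4.71 to 7.01 in the colon. The ratios of these lists are therefore not like for like, and no comparison between them is drawn. The summed myeloid level moved in the direction of Tnfsf13b, Tnf and Tnfsf10, and its part in those differences was not tested.

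Lymphocyte markers were dim. Of 8 T and NK cell markers 0 reached the median level, with summed levels of 268 and 246, and Cd3e was at 5.40 and 5.31. Of 4 B cell markers 1 did, Cd79b at 5.55 against 5.17, with sums of 121 and 109, while Ms4a1 (CD20) was at 4.45 and 4.49. In the 6 plasma cell markers, with sums of 947 and 682, Igha exceeded its colon value 6.54-fold, at 8.27 against 5.56. The list was 3 higher and 3 lower with a median of 0.073, and without Igha the sums were 638 and 635. Ighm, Sdc1 and BCMA had differences of -0.59, -0.47 and -0.15. Fibroblast and smooth muscle markers went the other way, with sums of 600.1 and 856, a ratio of 0.701, and Lum 3.38-fold lower in the graft. Endothelial markers had sums of 231 and 202, with Egfl7 the single gene of 6 past 2-fold. Of the 6, 4 were lower in the graft, with a median of -0.044, and without Egfl7 the sums were 161 and 172. In these bulk samples, fewer cells of a type and less RNA per cell cannot be told apart. The part of plasma cells, stroma and endothelium in the family's differences was not tested.

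**Figure D4:**
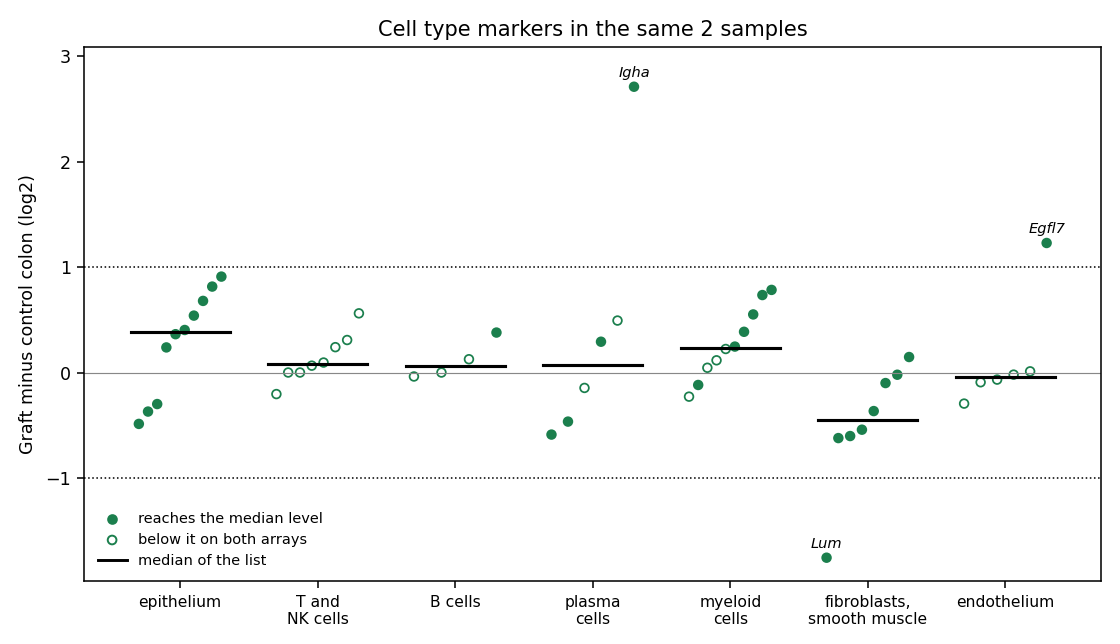
Difference between graft and control colon (log2) for each measured marker of 7 cell types, with filled points for genes at the median level on at least 1 array, open points for dimmer genes, black bars for the median of each list and dotted lines at 2-fold. Epithelial and myeloid medians lie at 0.38 and 0.23, the fibroblast and smooth muscle median at -0.45, and Igha, Egfl7 and Lum lie outside the dotted lines.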

How the data were processed

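RNA of 2 dissected epithelia, 4.33 ng each per the labels' protocols, was amplified, labelled with biotin and measured, 1 single-channel array for each group. For each of 24074 probe sets the authors deposited a log2 value per array. The background correction, normalization and software behind these values were not given in the sources used here. That values are log2 follows from their range, from 4.19 to 13.37 in the graft and from 4.22 to 13.46 in the colon. Array medians were 5.44 and 5.43, and the sorted values of the arrays differed by at most 0.25. The arrays thus lay on nearly a common scale, but the step that led to it was not given. Amplification of so little RNA can distort single transcripts.

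The platform's annotation gave 1 symbol for 18904 probe sets. The brightest probe set stood for each of 17305 genes. Differences are graft minus colon, counted at 2-fold. With 1 array per group no test was made, and the number of arrays limits all precision. The members, roles and lists were chosen with earlier results of these data known. Both values are given for members whose higher value reaches the median of all gene values, for the main ligands and for the 3 dimmer members with the largest absolute difference, and further members and list genes were added after their values were seen. Of each list, up to 4 genes with the largest absolute difference at that level were named, and up to 2 in the opposite direction. Alternatives covered normalization, probe set choice, level filter, floor and threshold. The counting code was tested on simulated data. Promoters came from RefSeq, GRCm38.p6. Python 3.11.15, NumPy 2.4.6 and pandas 2.3.3 were used.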

Additional observations from a re-analysis of the deposited data

How the results depend on the processing

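No paired analysis was possible because each group has 1 array, and for the same reason no sample could be left out. The count of 3 members past 2-fold upwards and 0 downwards was the same under quantile normalization. Most other settings could not change it. Centring used array medians that differed by only -0.0069, graft minus colon. The mean of all probe sets changes nothing, because no member has a second probe set. Dropping the level filter adds only members with differences of at most 0.24. With the 75th percentile as the level the count was also the same, as the 3 members have graft values above it. Relative to the epithelial markers, a reference chosen after the data were seen, the count was 2 and 0, because Fas changed to 0.72. At a 1.5-fold threshold the counts were 4 and 0, and at a 4-fold threshold 1 and 0. Relative to the epithelial markers with a 1.5-fold threshold they were 3 and 3. No share of all genes was counted on that reference. The number of members at the level was 13, and 8 with the 75th percentile, 6.53, as the level. The median difference of the members lay between 0.017 and 0.027 under the 3 other normalization and probe set settings and was -0.36 relative to the epithelial markers. Over the 13 members at the level it was 0.25, but 4 of them reached it through the graft array alone, so that value supports no direction, and all genes at the level had -0.047. Values of Tnfsf13b ran from 2.02 to 2.44 over the settings, those of Tnfrsf12a from 1.15 to 1.58, those of Fas from 0.72 to 1.16, and those of Tnfrsf1a from -0.86 to -0.39. Raising values below the 20th percentile of their array to it could not alter these 4, as none of their values lies below it. Lta, equal on both arrays as deposited, had -0.017 with quantile normalization. Background may limit every value below the level, so the folds of members with 1 such value may be understated by an unknown amount.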
